A study of Homo sapiens with 6 samples.

Results

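The genes described here are 48 genes of synaptic vesicles and regulated exocytosis, chosen by name for their known function from the 62696 genes counted in the deposited files. The choice was made with earlier results of these data known. They comprise vesicle membrane proteins, synapsins, vesicular monoamine transporters, SNAREs with their regulators, synaptotagmins, priming and active zone proteins, RAB3 and RAB27 GTPases, and proteins of vesicle retrieval. RNA-Seq had been performed on DMS53, an established human SCLC cell line with neuroendocrine (NE) features, in 3 control libraries and 3 libraries with enforced OC2 expression (OC2-OE). OC2-OE cells carried a lentiviral vector for OC2, the protein of ONECUT2, tagged with mGFP, and control cells carried the empty mGFP vector. Both vectors express constitutively, and both groups had been selected with puromycin. The study calls its experiments independent, but the labels do not say whether each library came from its own transduction, so p-values measure only the spread between these libraries.

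Regulated exocytosis releases hormones, peptides and transmitters from vesicles on demand. A vesicle is brought to the plasma membrane by RAB GTPases and their effectors, tethered and primed by scaffold and MUNC13-type proteins, and fused when SNARE proteins on both membranes zip together. Synaptotagmins sense calcium and trigger or tune that fusion, and complexins hold the SNAREs ready for it. Neuroendocrine cells, including those of SCLC, share this machinery with neurons, use it mainly for dense-core granules, and are recognised in pathology by one of its proteins, synaptophysin.

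Between 16533284 and 19099337 read pairs were counted on genes in each library. ONECUT2 had from 394 to 465 counts in control and from 68853 to 74031 in OC2-OE libraries, in accord with the labels, a count that does not separate the transgene from the endogenous gene. All 10 markers of NE SCLC on a fixed list had at least 10 counts in every library, and their summed level was between 5933 and 6003 CPM in control and between 5556 and 5645 CPM in OC2-OE libraries. Single markers on that list changed in both directions, 2 higher and 7 lower by the test used below, and the sum holds CALCA at 3774 and 2630 CPM and SCG2 at 801 and 2273 CPM in control and OC2-OE cells. The 2 higher markers were SCG2 and CHGA, with CHGA going from 72.25 to 150.1 CPM. The largest fall was in GRP, from 132 to 6.24 CPM, with NEUROD1, NCAM1 and INSM1 at -2.32, -2.00 and -1.93 on the log2 scale. The part of these marker changes in the vesicle genes was not tested. Levels are given as TMM-normalized CPM, a gene's share of the normalized library scaled to a common total. Markers of other cell types were low. The 6 leukocyte markers summed to between 3.85 and 4.42 CPM in control and between 7.45 and 9.06 CPM in OC2-OE libraries, with CD3E at 0 counts in all 6 libraries and PTPRC at 0 in the 3 control libraries. The 6 fibroblast markers summed to between 22.2 and 25.3 CPM in control and between 27.8 and 31.2 CPM in OC2-OE libraries, nearly all from COL1A1, and the 4 endothelial markers to between 12.7 and 15 and between 4.17 and 4.73 CPM. In bulk RNA, fewer expressing cells and less RNA per cell cannot be told apart, and this holds for every level below.

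The vesicle machinery changed unevenly after OC2 enforced expression. The synaptotagmins SYT4, SYT7, SYT13 and SYT17, the RAB GTPase RAB3B, the monoamine transporter SLC18A2 and the priming factor CADPS2 fell at least 2-fold. The RAB GTPase RAB27B, the SNARE VAMP1 and the active zone protein RIMS1 rose at least 2-fold. The SNARE VAMP2 and the endocytic proteins DNM1 and SNAP91 rose less, by 1.790-fold, 1.644-fold and 1.805-fold. In the SNARE group SNAP25 and STX1A fell, and in the endocytosis group AMPH fell, from few counts. Of the 48 genes, 46 had enough counts to be tested, and SYN3 and SLC18A1 did not. At an adjusted p under 0.001, the study's threshold, 13 genes rose and 22 fell in OC2-OE cells, 35 in all, or 76.1% of those tested, by the quasi-likelihood test of edgeR, with adjustment over all genes by Benjamini-Hochberg. Of all 17307 genes tested, 56.5% passed the same threshold, with 27.8% higher and 28.7% lower. A change of at least 2-fold was reached by 11 of the 46 genes (23.9%), 3 higher and 8 lower, against 17.3% of all tested genes, 8.29% higher and 9.04% lower. Values of the groups did not overlap for 39 of the 46 genes, and for 73.2% of all tested genes. The median log2 fold change (log2FC, OC2-OE over control, given with its standard error, SE) of the 46 genes was -0.14, against 0.01 for all genes, and the median absolute log2FC was 0.49, against 0.38. No test of the list as a whole was made, and AMPH, which was under the minimum of 0.572 CPM in an OC2-OE library, entered the test through its control libraries. Without AMPH, 34 of 45 genes passed, 13 higher and 21 lower, and 7 were lower at least 2-fold.

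**Figure D1:**
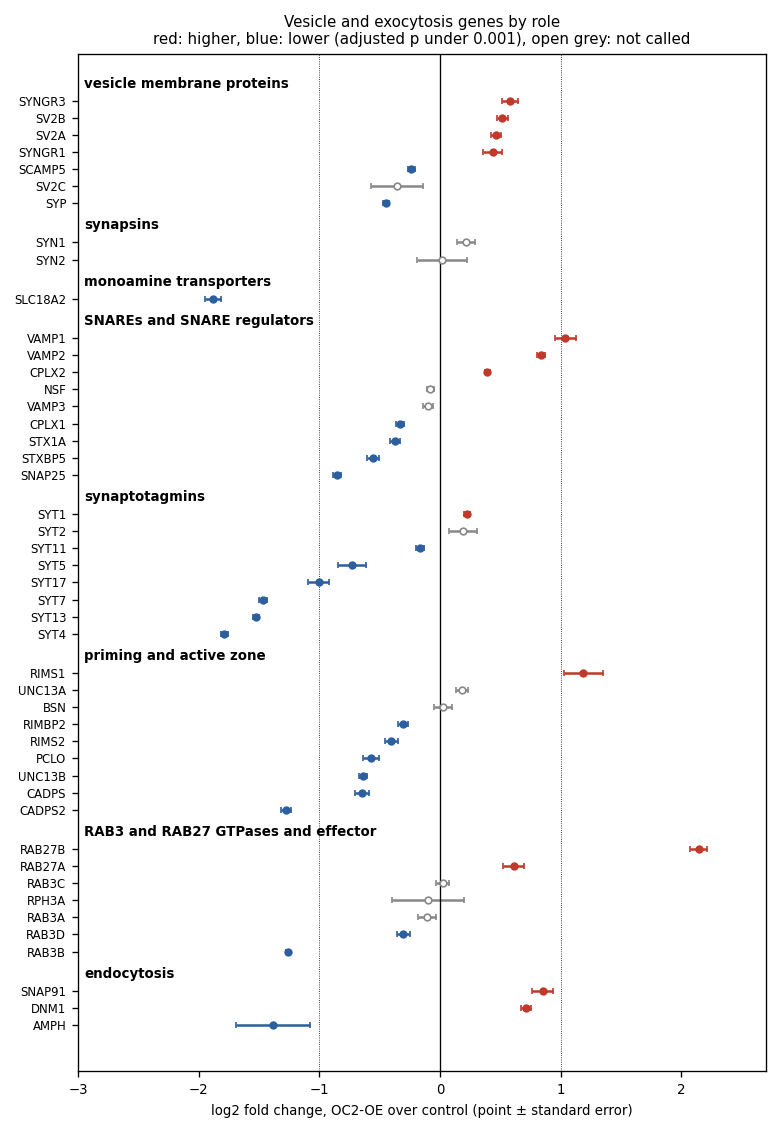
Log2FC of OC2-OE over control for each of the 46 tested genes, grouped by role, with points for the estimate and bars for the SE; dotted lines mark 2-fold. Synaptotagmins lie mostly to the left, from -1.79 to 0.23, while RAB27B stands farthest to the right at 2.14.

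The summed level of the 48 genes was lower in every OC2-OE library. In TPM, which divide the counts by exon length and so can be compared between genes, the genes summed to 3871, 3798 and 3836 in control and to 2846, 2840 and 2860 in OC2-OE libraries. The means were 3835 ± 36.2 and 2849 ± 10.3 TPM (SD, n = 3), which is 0.384% and 0.285% of all TPM. RAB3B alone fell from 618 ± 11.7 to 265 ± 3.98 TPM (SD, n = 3), and without it the sums were 3218 ± 24.5 and 2583 ± 6.29 TPM. SYT13, SYT4 and SYT7 fell too, from 536, 323 and 136 to 192, 96.2 and 50.6 TPM. CPLX2 and VAMP2 rose, from 312 and 114 to 421 and 210.1 TPM. The lower sum thus rests on a few abundant genes and does not describe the list as a whole, in which 13 genes rose and 22 fell. The order of the genes changed as well. In control cells RAB3B, SYT13, SYT4, CPLX2 and CPLX1 had the highest levels, at 618, 536, 323, 312 and 284 TPM. In OC2-OE cells CPLX2 led at 421 TPM and rank 231 of all genes, followed by RAB3B, CPLX1, VAMP2 and SYT13 at 265, 232, 210.1 and 192 TPM. Among the 1000 genes with the highest TPM there were 7 of the 48 in control and 5 in OC2-OE cells.

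**Figure D2:**
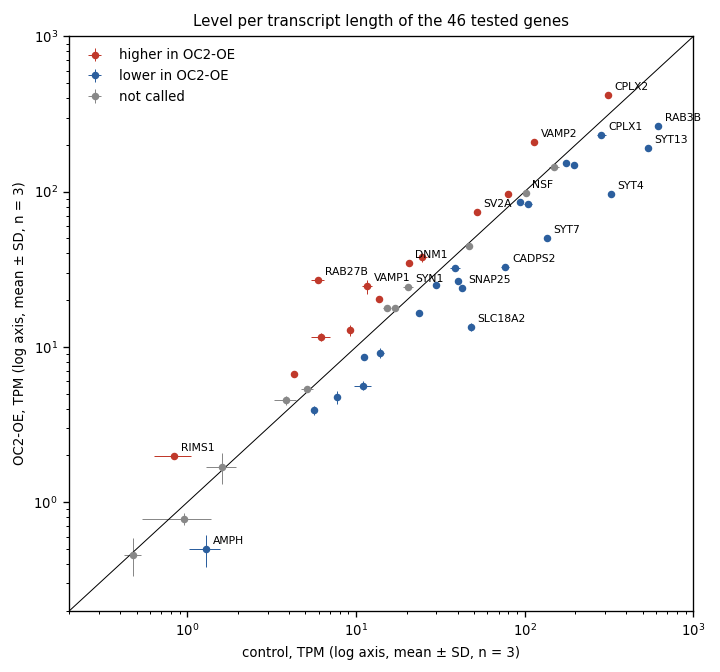
Mean TPM of the 46 tested genes in control (x axis) and OC2-OE cells (y axis), both on log axes, with bars for the SD over 3 libraries and a diagonal for equal levels. RAB3B, SYT13 and SYT4 lie below the diagonal at the upper end, at 618, 536 and 323 TPM in control cells, while CPLX2 and VAMP2 lie above it.

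RAB GTPases of the RAB3 and RAB27 families bind secretory vesicles and recruit the effectors that dock them. RAB3B, on chromosome 1 of GRCh38 from 51907956 to 51990700, had 1972, 1907 and 1926 CPM in control and 805, 797 and 822 CPM in OC2-OE libraries. The groups were wide apart, and the libraries of a group differed little. The log2FC was -1.26 (SE 0.019, adjusted p = 3.47e-91, edgeR). RAB27B, on chromosome 18 from 54717860 to 54895516, moved the other way, with 11.4, 9.68 and 10.2 CPM in control and 44.7, 47.2 and 47.0 CPM in OC2-OE libraries. Its log2FC of 2.14 (SE 0.070, adjusted p = 4.86e-56, edgeR) was the largest rise among the 46 genes. RAB27A, which shares with RAB27B the transport and docking of secretory organelles, rose from 11.9 ± 0.366 to 18.2 ± 0.717 CPM (SD, n = 3), or a log2FC of 0.61.

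RAB3D, best known from exocrine secretion, fell by 0.30 on the log2 scale, from 41.7 ± 2.83 to 33.7 ± 1.16 CPM (SD, n = 3). RAB3A, the main RAB3 of synapses, had 20.4 ± 0.346 CPM in control and 19.0 ± 0.708 CPM in OC2-OE cells (SD, n = 3), and was not called (adjusted p = 0.190, edgeR). RAB3C had 40.3 ± 1.76 and 41.1 ± 1.40 CPM (SD, n = 3), and its groups overlapped. RPH3A, the effector rabphilin that binds RAB3 on vesicles, was near the limit of detection, between 0.835 and 1.44 CPM over all 6 libraries.

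The bases before the annotated starts of 4 of the genes are shown because 2 of them fell and 2 rose, and because within this set the letters of an ONECUT core occur on either side. The sequences are RefSeq's on GRCh38.p14, given 5′ to 3′ on the strand of the gene, up to the 250 bases before the start and outside the gene as the deposited annotation places it. They lie at chr1:51990701-51990950 on the minus strand for RAB3B, chr18:43277536-43277740 on the minus strand for SYT4, chr18:54717607-54717856 on the plus strand for RAB27B and chr12:6470678-6470927 on the minus strand for VAMP1, and no other annotated gene overlaps these intervals. The SYT4 run ends 45 bases before RefSeq's start. Capitals mark ATCAAT, a core of the sites bound by ONECUT factors, and CAGCACC, letters of the left part of RE1, the element bound by the repressor REST, each on either strand.
RAB3B: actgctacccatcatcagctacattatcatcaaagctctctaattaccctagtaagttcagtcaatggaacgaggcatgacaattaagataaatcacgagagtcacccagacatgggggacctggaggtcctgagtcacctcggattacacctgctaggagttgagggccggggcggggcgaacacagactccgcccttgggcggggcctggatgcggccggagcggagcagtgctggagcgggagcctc
SYT4: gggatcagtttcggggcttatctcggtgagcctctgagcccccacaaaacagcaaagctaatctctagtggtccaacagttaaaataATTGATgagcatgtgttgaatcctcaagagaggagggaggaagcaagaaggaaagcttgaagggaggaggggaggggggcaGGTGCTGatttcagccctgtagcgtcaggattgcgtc
RAB27B: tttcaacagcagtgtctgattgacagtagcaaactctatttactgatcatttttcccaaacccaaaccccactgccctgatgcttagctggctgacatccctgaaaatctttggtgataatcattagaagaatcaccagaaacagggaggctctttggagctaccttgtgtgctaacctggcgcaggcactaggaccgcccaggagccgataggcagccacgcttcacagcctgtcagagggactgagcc
VAMP1: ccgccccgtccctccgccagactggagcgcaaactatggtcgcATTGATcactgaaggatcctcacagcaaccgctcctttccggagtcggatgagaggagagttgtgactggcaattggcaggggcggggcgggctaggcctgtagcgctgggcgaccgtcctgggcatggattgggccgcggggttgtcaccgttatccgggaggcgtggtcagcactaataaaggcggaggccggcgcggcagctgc

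Promoters could be matched by symbol for 38 of the 48 genes, of which 12 were higher and 15 lower in OC2-OE cells. Those without a match were SYNGR3, SYN3, SLC18A1, SNAP25, CPLX1, SYT7, SYT13, SYT17, CADPS2 and RIMS2. Most of them were lower in OC2-OE cells, and SYT7, SYT13, SYT17 and CADPS2 fell at least 2-fold, so the search leaves out many of the genes that fell. ATCAAT and ATCGAT, as cores of ONECUT sites, and CAGCACC and GGACAGC, as letters of the left and right parts of RE1, were searched on both strands of the 250 bases before the start. ATCGAT reads the same on both strands, and ATCAAT reads as ATTGAT on the other. ATCAAT was present in 2 of the 38, SYT4 at 163 and VAMP1 at 207 bases before RefSeq's start, against 5.69% of 27305 promoters. ATCGAT was present in 1 of the 38, SYT2, against 0.674% of all promoters. CAGCACC was found for 7 genes, SV2B, SV2C, SYN1, SYT4, RIMS1, PCLO and RPH3A, against 6.07% of all promoters, and 2 of these were higher and 2 lower in OC2-OE cells. GGACAGC was found for 5 genes, SCAMP5, UNC13A, BSN, RAB3C and RPH3A, against 4.78%. These are matches of letters in a short window, and binding was not measured.

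Synaptotagmins are vesicle proteins with paired C2 domains, many of which bind calcium and couple its entry to fusion. All 8 on the list could be tested, 6 were lower in OC2-OE cells, 1 was higher and 1 did not pass. Beside this, 28.7% of all genes were lower and 27.8% higher. SYT13, on chromosome 11 from 45240302 to 45286341, an atypical synaptotagmin that does not bind calcium and is used as a marker of endocrine precursors, had 725, 696 and 724 CPM in control and 252, 247 and 248 CPM in OC2-OE libraries. Its log2FC was -1.52 (SE 0.023, adjusted p = 2.32e-91, edgeR). SYT4, on chromosome 18 from 43267892 to 43277535, a dense-core vesicle form whose promoter is printed above, had 346, 342 and 335 CPM in control and 99.3, 100.2 and 96.9 CPM in OC2-OE libraries. At -1.79 on the log2 scale (SE 0.029) it had the lowest value of the 8. SYT7, on chromosome 11 from 61513714 to 61581148, a high-affinity calcium sensor of slow and hormone release, had 256, 249.7 and 248 CPM in control and 88.6, 92.7 and 92.2 CPM in OC2-OE libraries, or a log2FC of -1.47 (SE 0.031). For all 3 genes the groups were far apart compared with the spread within them.

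Among the less abundant members, SYT17, on chromosome 16 from 19167971 to 19268332, had 23.0, 19.1 and 18.9 CPM in control and 10.4, 9.41 and 10.7 CPM in OC2-OE libraries. It was 2.005-fold lower, just past the 2-fold limit, and its log2FC (SE 0.087) ran from -1.06 to -0.90 when any 1 library was left out. SYT5, a calcium sensor of dense-core vesicles, went from 9.78 ± 0.182 to 5.89 ± 0.554 CPM (SD, n = 3), or a log2FC of -0.73. SYT1, the fast calcium sensor of synaptic vesicles, was the one synaptotagmin that rose, from 185 ± 4.41 to 217 ± 2.02 CPM (SD, n = 3), or a log2FC of 0.23 (SE 0.028). SYT11, which like SYT13 does not trigger fusion, changed by -0.16 on the log2 scale, and its call was lost without control replicate 1 (adjusted p = 0.00108, edgeR). SYT2, the close relative of SYT1, had 7.36 ± 1.10 and 8.45 ± 0.524 CPM (SD, n = 3) with overlapping groups.

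The make-up of the synaptotagmin family differed between the groups as well. Summed over the 8 genes, the level was 1191 ± 24.3 TPM in control and 536 ± 3.40 TPM in OC2-OE cells (SD, n = 3). SYT13 and SYT4 made up 45.0% ± 0.675 and 27.1% ± 0.468 of this sum in control cells and 35.8% ± 0.245 and 17.96% ± 0.270 in OC2-OE cells (SD, n = 3). The share of SYT1 was 6.70% ± 0.0606 in control and 17.9% ± 0.0976 in OC2-OE cells, and that of SYT11 was 7.88% ± 0.200 and 16.1% ± 0.0445 (SD, n = 3). Shares here and below are of the genes among the 48 only, and were compared by a two-sided exact permutation test over the 6 libraries, whose smallest possible p is 0.1, so that none of the 35 shares in 12 families could pass 0.05. The groups did not overlap for 25 of the 35 shares, all of which had this smallest p (0.14 after Benjamini-Hochberg adjustment, exact permutation test).

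In the RAB3 family, RAB3B made up 86.2%, 85.8% and 85.4% of the summed TPM in control and 74.0%, 73.4% and 73.6% in OC2-OE libraries. The family as a whole summed to 720.1 ± 12.4 TPM in control and 360 ± 5.31 TPM in OC2-OE cells (SD, n = 3), and RAB3B was its main member in both. The share of RAB3A was 6.48% ± 0.192 and 12.4% ± 0.509 (SD, n = 3), although the level of RAB3A itself did not pass the test. In the RAB27 pair, RAB27B made up 58.1% ± 2.11 in control and 80.2% ± 0.700 in OC2-OE cells (SD, n = 3), and the pair summed to 10.2 ± 0.547 and 33.9 ± 0.907 TPM.

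**Figure D3:**
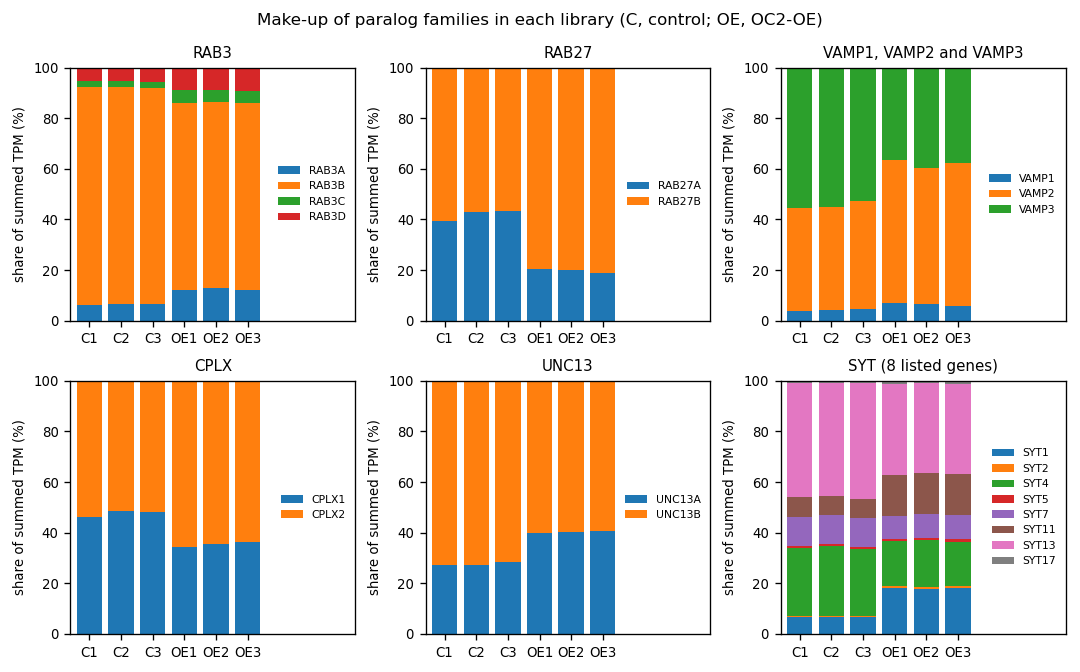
Share of each gene in the summed TPM of its family, as stacked bars for each of the 6 libraries, in 6 families, counting only the listed genes named in each panel. RAB3B takes 85.4% to 86.2% of the RAB3 sum in control and 73.4% to 74.0% in OC2-OE libraries, and VAMP2 has a larger share than VAMP3 in OC2-OE but not in control libraries.

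The fusion machinery proper, the SNAREs and the proteins that act on them, moved in both directions. Of 9 genes 3 were higher, 4 lower and 2 did not pass, beside 27.8% higher and 28.7% lower of all genes. VAMP1, a vesicle SNARE on chromosome 12 from 6462237 to 6470677, had 8.83, 9.20 and 10.0 CPM in control and 21.1, 19.2 and 17.2 CPM in OC2-OE libraries. Its log2FC was 1.04 (SE 0.090, adjusted p = 2.75e-20, edgeR), and between 0.97 and 1.12 if a library was omitted. VAMP2, the vesicle SNARE of neurons and endocrine cells, rose from 90.6 ± 3.67 to 162 ± 6.39 CPM (SD, n = 3), or a log2FC of 0.84 (SE 0.034). Of its exon bases 12.4% are shared with another annotated gene, which had 3 counts in all. VAMP3, the form of general membrane traffic, had 100.1 ± 7.51 and 93.7 ± 3.40 CPM (SD, n = 3) and did not pass (adjusted p = 0.0193, edgeR), except without control replicate 3 (adjusted p = 5.39e-04). Of the summed TPM of VAMP1, VAMP2 and VAMP3 alone, the share of VAMP2 was 41.5% ± 0.995 in control and 55.5% ± 1.61 in OC2-OE cells, and that of VAMP3 was 54.3% ± 1.43 and 38.0% ± 1.67 (SD, n = 3). VAMP8, a SNARE of endosomes and secretory granules on the further list described below, had a higher level per length than each of these, with 508 ± 15.5 TPM in control and 486.5 ± 7.45 TPM in OC2-OE cells (SD, n = 3), and is not in that sum.

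SNAP25 and STX1A, the SNAREs of the plasma membrane among the 48 genes, pair with the VAMPs. SNAP25 fell from 211 ± 5.43 to 117 ± 2.96 CPM (SD, n = 3), or a log2FC of -0.85 (SE 0.031, adjusted p = 7.53e-52, edgeR), and STX1A, which encodes syntaxin-1A, fell from 95.2 ± 5.76 to 73.7 ± 1.78 CPM (SD, n = 3), or a log2FC of -0.37. STXBP5, or tomosyn, which binds these SNAREs and restrains fusion, was lower by 0.56 on the log2 scale in OC2-OE cells.

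Complexins clamp and assist the assembled SNAREs, and the pair moved apart. CPLX2, on chromosome 5 from 175796310 to 175884021 and the highest of the SNARE group per length, had 532, 545 and 536 CPM in control and 714, 699.8 and 703 CPM in OC2-OE libraries. Every OC2-OE library was above every control library, and the log2FC was 0.39 (SE 0.021, adjusted p = 1.48e-35, edgeR). CPLX1 went from 164 ± 10.3 to 130.0 ± 4.73 CPM (SD, n = 3), or a log2FC of -0.33, and the share of CPLX2 in the pair was 52.4% in control and 64.5% in OC2-OE cells. NSF, the ATPase that takes used SNARE complexes apart, had 235 ± 6.18 and 222 ± 2.37 CPM (SD, n = 3), or a log2FC of -0.08 that did not pass (adjusted p = 0.00665, edgeR). Reads that fit both NSF and its copy NSFP1 can go uncounted, and NSFP1 had no more than 7 counts in any library.

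Priming makes docked vesicles ready to fuse, and the proteins of the active zone organise it. Of 9 genes here 6 were lower, 1 higher and 2 did not pass, beside 28.7% lower and 27.8% higher of all genes. CADPS2, on chromosome 7 from 122318411 to 122886759, one of the CAPS proteins that prime dense-core vesicles, had 125, 114 and 119.8 CPM in control and 49.6, 48.7 and 50.1 CPM in OC2-OE libraries. The log2FC was -1.27 (SE 0.041, adjusted p = 7.59e-57, edgeR), and the groups were far apart. Its paralog CADPS fell as well, from 50.2 ± 2.31 to 32.1 ± 2.25 CPM (SD, n = 3), or a log2FC of -0.65, and the pair summed to 90.7 ± 3.47 TPM in control and 41.8 ± 0.309 TPM in OC2-OE cells.

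The MUNC13 proteins open syntaxin for SNARE assembly. UNC13B fell from 176 ± 6.82 to 113 ± 4.15 CPM (SD, n = 3), or a log2FC of -0.64. UNC13A, the form of most synapses, had 42.7, 39.7 and 43.7 CPM in control and 48.7, 46.2 and 47.9 CPM in OC2-OE libraries, and every OC2-OE library was above every control library. It narrowly missed the threshold (adjusted p = 0.00101, edgeR) and passed it without control replicate 3 (adjusted p = 8.23e-04) or without OC2-OE replicate 2 (adjusted p = 9.38e-04), and with a minimum of 10 counts in each library (adjusted p = 6.88e-04). Its share in the pair was 27.7% ± 0.668 in control and 40.3% ± 0.344 in OC2-OE cells (SD, n = 3).

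RIM proteins tie RAB3 on the vesicle to MUNC13 and calcium channels. RIMS1, on chromosome 6 from 71886550 to 72403150, had 3.16, 2.93 and 1.91 CPM in control and 6.16, 6.41 and 5.82 CPM in OC2-OE libraries, from 139 counts over the control libraries. Its log2FC was 1.19 (SE 0.16, adjusted p = 9.40e-11, edgeR) and lay between 1.00 and 1.33 if a library was omitted. RIMS2, with the higher level of the pair per length, fell by 0.40 on the log2 scale, from 43.3 ± 1.58 to 32.8 ± 1.30 CPM (SD, n = 3). RIMBP2, which links RIM to calcium channels, and PCLO, the scaffold piccolo, had log2FCs of -0.31 and -0.57. BSN, the related scaffold bassoon, had 20.5 ± 1.64 and 20.9 ± 0.154 CPM (SD, n = 3) with overlapping groups (adjusted p = 0.767, edgeR).

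Of the vesicle membrane proteins 4 were higher, 2 lower and 1 did not pass, beside 27.8% higher and 28.7% lower of all genes. SYP, or synaptophysin, the NE marker, on chromosome X from 49187815 to 49200218, had 322, 341.5 and 342 CPM in control and 250, 247 and 241 CPM in OC2-OE libraries, and with 148 ± 2.79 TPM (SD, n = 3) after OC2 enforced expression it was still within the 1169 genes of highest level. The log2FC was -0.44 (SE 0.026). SCAMP5, a secretory carrier protein, fell by 0.24 on the log2 scale. SV2A and SV2B, glycoproteins of synaptic and endocrine vesicles, rose from 60.9 ± 1.08 to 84.1 ± 1.36 CPM and from 46.1 ± 1.61 to 66.1 ± 1.55 CPM (SD, n = 3), log2FCs of 0.46 and 0.52. The synaptogyrins SYNGR1 and SYNGR3, which are related to synaptophysin, also rose, with log2FCs of 0.44 and 0.58. SV2C was low, between 1.66 and 4.07 CPM over the 6 libraries, and its groups overlapped. Thus SYP and its relatives SYNGR1 and SYNGR3 moved in opposite directions, each with groups that did not overlap.

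Vesicular monoamine transporters load amines into vesicles, and SLC18A2 had the largest fall of the 46 tested genes. SLC18A2, or VMAT2, on chromosome 10 from 117241093 to 117279430, had 49.5, 46.5 and 49.3 CPM in control and 12.3, 13.5 and 13.8 CPM in OC2-OE libraries. The log2FC was -1.88 (SE 0.065, adjusted p = 3.12e-53, edgeR). SLC18A1, or VMAT1, on chromosome 8, had 6, 1 and 0 counts in control and 0 in each OC2-OE library. These counts rest on control replicate 1, and no fold is given.

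The synapsins, which tether reserve vesicles to each other, gave no call. SYN1, on chromosome X from 47571901 to 47619857, had 19.4, 19.4 and 17.2 CPM in control and 20.9, 22.7 and 21.6 CPM in OC2-OE libraries, so that the groups did not overlap, but the log2FC of 0.22 (SE 0.073) did not pass (adjusted p = 0.00583, edgeR). Of its exon bases 24.9% are shared with another annotated gene, which had 3 counts in all. SYN2 had 2.50 ± 0.491 and 2.56 ± 0.590 CPM (SD, n = 3), and SYN3 had 3 counts in control and 2 in the OC2-OE group.

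After fusion, membrane is retrieved by clathrin-dependent endocytosis, and 3 genes of this step are among the 48, 2 of them higher and 1 lower. Among all genes tested 27.8% were higher and 28.7% lower. DNM1, on chromosome 9 from 128191655 to 128255248, the neuronal dynamin that pinches off vesicles, had 53.2, 55.6 and 53.5 CPM in control and 86.6, 90.5 and 89.7 CPM in OC2-OE libraries. The log2FC was 0.72 (SE 0.042, adjusted p = 1.66e-32, edgeR). SNAP91, the clathrin adaptor AP180, rose from 10.1 ± 1.28 to 18.3 ± 1.06 CPM (SD, n = 3), or a log2FC of 0.85. AMPH, or amphiphysin, on chromosome 7 from 38383704 to 38631420, had 25, 31 and 33 counts in control and 12, 9 and 15 in OC2-OE libraries. Its log2FC of -1.38 (SE 0.31, adjusted p = 3.80e-05, edgeR) rests on these few counts, and the call was lost without control replicate 3 (adjusted p = 0.00102, edgeR) and by the DESeq2 Wald test (adjusted p = 0.00105).

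**Figure D4:**
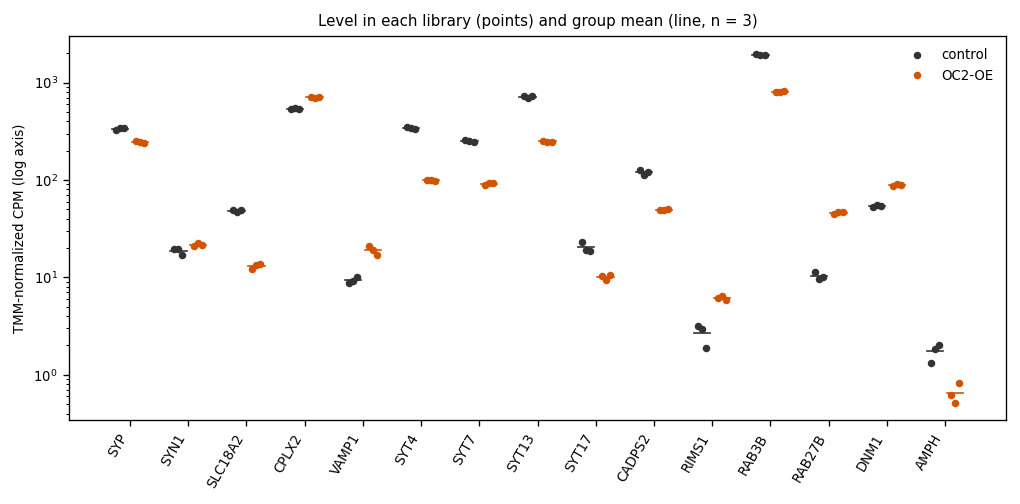
TMM-normalized CPM (log axis) of 15 genes in each library, as points for the 3 control and 3 OC2-OE libraries with a line at each group's mean. RAB3B is the highest, with 1907 to 1972 CPM in control libraries. The genes were picked for a called 2-fold change or as the highest of their role, so their separation was largely set by the choice. It is least for SYN1. Groups did not overlap for 39 of the 46 tested genes and for 73.2% of all tested genes.

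A further 100 genes of docking, priming, fusion and recycling were listed from general knowledge, also with earlier results known, and 85 could be tested. Of these 32 rose and 23 fell at an adjusted p under 0.001 (edgeR), 64.7% in all beside 56.5% of all genes, with a median log2FC of 0.08. Of the 85 genes RAB3IL1, UNC13C, UNC13D, SLC17A7 and SYPL2 were under the minimum of 0.572 CPM in a library, and without them 51 of 80 passed (63.7%), 30 higher and 21 lower. The largest rises were in SYTL5, RAB3IL1, DOC2B and SNCG. SYTL5, a synaptotagmin-like protein that binds RAB27, rose from 1.57 ± 0.177 to 22.7 ± 0.802 CPM (SD, n = 3), or a log2FC of 3.85 (SE 0.13). RAB3IL1, an exchange factor for RAB3A, had 13 counts in control and 124 in the OC2-OE group, or a log2FC of 3.14, and was under the minimum in every control library, so that it entered the test through the OC2-OE group. DOC2B, a calcium sensor with C2 domains that promotes fusion in endocrine cells, rose from 5.19 ± 1.05 to 43.0 ± 0.746 CPM (SD, n = 3), or a log2FC of 3.05 (SE 0.085). SNCG, or gamma-synuclein, had a log2FC of 2.83, from 2.22 ± 0.382 to 15.9 ± 0.569 CPM (SD, n = 3).

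The largest falls on that list were in UNC13C, SLC17A7, PPFIA2 and SYTL3. PPFIA2, a liprin of the active zone, fell from 86.4 ± 1.80 to 27.1 ± 0.270 CPM (SD, n = 3), or a log2FC of -1.67 (SE 0.048), and SYTL3, another synaptotagmin-like protein that binds RAB27, from 27.9 ± 1.69 to 9.85 ± 0.119 CPM, or a log2FC of -1.50. UNC13C and SLC17A7, a MUNC13 and a vesicular glutamate transporter, had log2FCs of -2.16 and -1.97 from only 149 and 120 counts over the control libraries, and both were under the minimum in an OC2-OE library and entered the test through control. Of the 7 tested syntaxins of that list, which act at the plasma membrane, endosome and Golgi, 5 were higher and 0 lower, beside 27.8% of all genes higher, with STX7 and STX16 at 0.84 and 0.72 on the log2 scale, whereas STX1A, which is not on that list, fell. The 3 endophilins, partners of dynamin in endocytosis, were all lower, beside 28.7% of all genes, with SH3GL1, SH3GL2 and SH3GL3 at -0.28, -1.29 and -1.38, whereas of the dynamins DNM3 rose by 2.10 on the log2 scale, from 4.90 ± 0.448 CPM (SD, n = 3) in control, and DNM2, at 201 ± 5.36 CPM in control, fell by 0.31. The 8 subunits of the exocyst, the tethering complex of constitutive secretion, split into 3 higher, 3 lower and 2 that did not pass. Their log2FCs ran from -0.77 to 0.30, and of all genes 27.8% were higher and 28.7% lower.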

How the data were processed

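RNA-Seq libraries of DMS53 cells, 3 control and 3 OC2-OE, were used. Per the file headers the authors counted read pairs on exons by strand with featureCounts version 1.6.0 and GENCODE release 42, and per the labels aligned them to GRCh38 with STAR version 2.7.9a. The deposited values are raw counts of 62696 genes, 62625 of which were matched to a symbol. A symbol with several identifiers went to the one with most counts. Pairs that fit several genes are not counted by these options.

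Counts were normalized by TMM, filtered with filterByExpr and tested with edgeR version 4.0.16 (glmQLFit with robust estimation, glmQLFTest) in R version 4.3.3, without a replicate term. Adjusted p are Benjamini-Hochberg values over the 17307 genes tested. SE were obtained as |log2FC| over the root of the F statistic. TPM were computed from counts and the exon lengths in the files. Alternatives used DESeq2 version 1.42.0 and limma version 3.58.1. Library totals limit the precision of low genes, and intervals and floors cover counting error only.

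The genes, lists and tests were chosen with earlier results of these data known. Values per library are given for genes with an adjusted p under 0.001 and at least a 2-fold change and for the gene of highest TPM in each role, and for UNC13A. The further list is given by its 4 largest rises and falls. UNC13A, STX7, STX16, DNM2, DNM3, VAMP8 and the families of the further list were chosen after their values were seen.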

Additional observations from a re-analysis of the deposited data

How the results depend on the processing

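The 15 alternatives were DESeq2's size factors, library size only, upper-quartile normalization, the DESeq2 Wald test, limma voom, no filter, a minimum of 10 counts per library, the omission of ONECUT2, the replicate number as a block, and each library left out in turn. Of the 35 called genes, 33 kept their direction and call under every alternative that tested them, and no called gene reversed. The count of genes called ran from 34 to 36, and from 34 to 36 with each library left out. When a 2-fold change was required too, 11 of the 46 genes, 18 of the 85 further genes and 2999 of all genes were called. SYT11 also lost its call with library size only (adjusted p = 0.00229) and upper-quartile normalization (adjusted p = 0.00113), under which SYN1 (adjusted p = 7.19e-04 and 9.90e-04) and UNC13A gained one, as did UNC13A with the minimum of 10 counts, and the cause was not tested. These 2 settings moved the median log2 fold change of all genes from 0.01 to 0.06 and 0.05. With library size only 5337 of all genes were higher and 4427 lower, and with upper-quartile normalization 5256 and 4521. In the main fit these were 4810 and 4966. Both settings gave 15 higher and 21 lower of the 46 genes. Of the 85 further genes 36 were higher with each, and 20 and 21 lower. Genes that were not called changed sign when a library was left out, SV2C to 0.05 without control replicate 1 (lowest -0.61), SYN2 to -0.13 without control replicate 2 and -0.17 without OC2-OE replicate 2 (highest 0.16), BSN to -0.03 without control replicate 2, RAB3C to -0.01 without control replicate 3 and RPH3A to 0.08 without OC2-OE replicate 1 (lowest -0.31). The number of shares whose groups did not overlap was 25 with all libraries and between 25 and 28 with a library left out. Shares are computed within each library, so leaving a library out cannot lower this number, and no stability is read from it. With the replicate block, 35 of the 46 genes, 54 of the 85 and 9642 of all genes were called. The numbers gave no pairing, since same-numbered libraries correlated in their deviations from the group means by 0.0125, 0.0309 and 0.0156 over 9410 genes, though each library correlated best with its own number.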
